A study of Homo sapiens with 66 samples.

Results

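MOLM-13 and MV-4-11 are human acute myeloid leukemia cell lines that share a pair of driver lesions, an internal tandem duplication in the receptor tyrosine kinase gene FLT3 (FLT3-ITD) and a fusion of the chromatin regulator gene KMT2A. The partner of KMT2A is MLLT3 in MOLM-13 and AFF1 in MV-4-11. Their RNA was compared for the difference between their responses to etoposide, that is, the etoposide over untreated ratio in MOLM-13 divided by the same ratio in MV-4-11, gene by gene. This interaction rests on 12 of the 66 libraries of the series, which fall into untreated MOLM-13, etoposide-treated MOLM-13, untreated MV-4-11 and etoposide-treated MV-4-11 with 3 libraries each. Untreated cells received medium and treated cells received etoposide for 24 hours at that line's own IC50, the concentration of mid-point effect on viability. The concentration therefore differed between the cell lines, with the higher one in MV-4-11, and cell line and concentration cannot be told apart in the response difference. Each library came from 3 pooled wells of 1 cell line, and the submitters call the 3 libraries of a group biological replicates. No independent isolates of either line were compared, so the p-values measure the spread between cultures of these lines.

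Etoposide traps topoisomerase II on cut DNA and leaves double-strand breaks. Breaks activate the kinases ATM and ATR and stabilise the transcription factor p53, which switches on CDKN1A (the CDK inhibitor p21) and pro-apoptotic genes. p21 keeps the RB family active, and RB-family complexes repress the E2F targets that replicate DNA and drive mitosis. Damaged cells can also raise interferon-stimulated genes through cytosolic DNA sensing, and leukemic blasts can raise monocyte genes as they differentiate.

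The 12 libraries held 17997404 to 24101670 reads on genes. Levels are given in CPM, reads on the gene scaled to an equal library size with TMM factors, and 3 reads, the limit that a count of 0 allows, correspond to 0.124 to 0.167 CPM in a single library. Libraries of a group differed by more than sampling noise in all 12 pairs, since the chi-square statistic divided by its degrees of freedom was 3.21 to 29.6, widest between etoposide-treated MOLM-13 replicates 1 and 2. Mitochondrial genes took 5.17% to 5.68% of reads in untreated and 7.07% to 7.44% in treated MOLM-13, against 4.18% to 4.40% and 5.29% to 5.62% in MV-4-11. Ribosomal protein genes took 8.05% to 8.33% of reads before and 9.88% to 10.21% after etoposide in MOLM-13, against 7.08% to 7.38% and 7.02% to 7.38% in MV-4-11. The part of these shares in the gene results was not tested. The defining myeloid genes CD33 and SPI1 were above 100 CPM in every library, CD14 was below 1 CPM in every library, and the summed level of 10 myeloid markers was 3210 to 4000 CPM in untreated and 7520 to 8440 CPM in treated MOLM-13, against 1390 to 1490 CPM and 1990 to 2320 CPM in MV-4-11. Of these sums LYZ alone gave 1410 to 2280 CPM and 4830 to 5970 CPM in MOLM-13, and 261 to 356 CPM and 842 to 1140 CPM in MV-4-11. MPO was lower after etoposide in MOLM-13, as was FLT3 in MV-4-11. Markers of T and NK cells summed to at most 2.78 CPM and erythroid markers to at most 1.7 CPM in any library. B cell markers summed to 0.912 to 1.38 CPM in untreated and 2.3 to 3.05 CPM in treated MOLM-13, and 1.56 to 1.87 CPM and 9.36 to 11.6 CPM in MV-4-11, where treated cells had 4.24 to 5.53 CPM of CD79B. Megakaryocyte markers went from 0.257 to 0.714 CPM to 0.963 to 1.32 CPM in MOLM-13 and from 0.847 to 1.24 CPM to 5.03 to 5.89 CPM in MV-4-11, of which ITGA2B gave 4.91 to 5.73 CPM. HBB, CD2, PF4 and PPBP had no reads. The part of these markers in the results was not tested.

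The responses differed for 1090 of 14933 tested genes, 7.3%, at an FDR below 0.05 (edgeR quasi-likelihood test, Benjamini-Hochberg) and a more than 2-fold ratio of the 2 fold changes. For 214 genes (1.43%) the response was higher in MOLM-13, and for 876 (5.87%) it was higher in MV-4-11. In the same fit 1371 genes rose (9.18%) and 514 fell (3.44%) in MOLM-13, and 1993 rose (13.3%) and 350 fell (2.34%) in MV-4-11. The 876 genes were of several kinds. Of them, 429 (49%) rose in MV-4-11 and passed in neither direction in MOLM-13, 133 (15.2%) rose in both lines, 135 (15.4%) fell in MOLM-13 and were not called in MV-4-11, 21 (2.4%) fell in MOLM-13 and rose in MV-4-11, and 158 (18%) were called in neither line alone. Of the 214 genes, 97 (45.3%) rose in MOLM-13 with no call in MV-4-11, 43 (20.1%) fell in MV-4-11 with no call in MOLM-13, 7 (3.27%) rose in both, 3 (1.4%) went opposite ways and 64 (29.9%) were called in neither. The untreated lines differed at 3503 genes (23.5%), 2102 higher in MOLM-13 (14.1%) and 1401 higher in MV-4-11 (9.38%). These basal values share their untreated libraries with the responses, so they are given below only to show from which level each response starts.

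**Figure D1:**
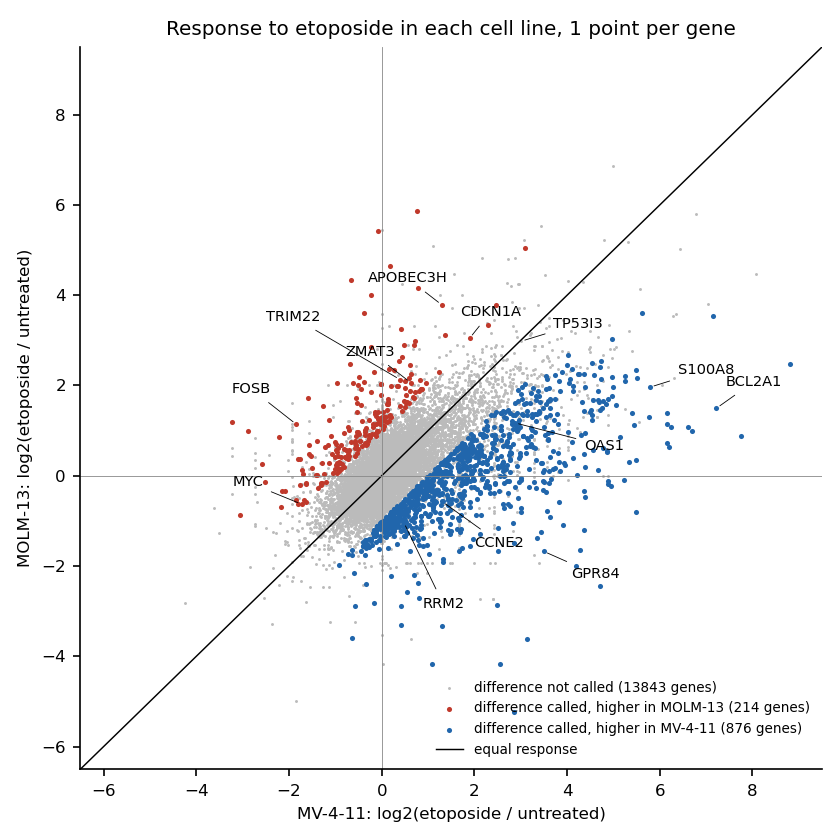
Each point is 1 of the 14933 tested genes, with its log2 ratio of etoposide over untreated in MV-4-11 on the horizontal axis and in MOLM-13 on the vertical axis. Red points are the 214 genes with a called higher response in MOLM-13, blue points the 876 with a called higher response in MV-4-11, grey points the rest, and the black line marks equal responses. The blue cloud reaches far to the right near a MOLM-13 value of 0, while CDKN1A, ZMAT3, APOBEC3H and FOSB lie above the line.

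Many of the widest ratios came from genes close to silence in 1 line. To set these apart, a limit of 5 CPM in the mean of some group of each line was applied to the same calls, chosen after the values were seen. Of 9733 such genes, 75 had a called higher response in MOLM-13 (0.771%) and 333 in MV-4-11 (3.42%). Calls toward MV-4-11 thus outnumbered those toward MOLM-13 among these genes too. The 17 gene lists described next are read against 1.43% and 5.87% of all tested genes and against a median response difference of -0.06 over all of them, and the number of called members is given for each list. Counts at an unadjusted p under 0.05 (edgeR quasi-likelihood test) have another base, since 5694 of the 14933 tested genes reached it in either direction. The plot of list medians shows all 17.

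Of 25 tested p53 targets, 4 had a called higher response in MOLM-13 (CDKN1A, ZMAT3, GADD45A and TNFRSF10B) and none had one in MV-4-11, where no member had an unadjusted p under 0.05 in that direction, against 19 toward MOLM-13. The median log2 response was 1.13 in MOLM-13 and 0.45 in MV-4-11, and 15 members rose in MOLM-13 against 7 in MV-4-11. CDKN1A (ENSG00000124762, chr6:36676460-36687337, GRCh38), which encodes p21, stood at 227, 259 and 253 CPM in untreated and 1727, 2173 and 2198 CPM in treated MOLM-13, and at 137, 136 and 137 CPM in untreated and 498, 528 and 502 CPM in treated MV-4-11. Every treated library was above every untreated library of its line, and treated MOLM-13 was above every other library. The gene rose by 3.05 on the log2 scale in MOLM-13 and by 1.90 in MV-4-11, and the difference was 1.15 ± 0.11 (SE, n = 3 libraries per group, adjusted p = 1.1e-06, edgeR quasi-likelihood test). ZMAT3 (chr3:178960121-179072215), an RNA-binding splicing regulator, went from 22.3, 21.6 and 20.1 CPM to 108, 80.6 and 79 CPM in MOLM-13 and from 35.7, 31.2 and 30.2 CPM to 57.2, 47.3 and 45.5 CPM in MV-4-11. Its level was lower in untreated MOLM-13 than in untreated MV-4-11 and higher after etoposide, without overlap, and the difference was 1.44 ± 0.17. GADD45A, a growth arrest and repair factor, rose from 8.11 to 8.67 CPM to 29.5 to 30.9 CPM in MOLM-13 and changed from 13.2 to 16.5 CPM to 23.1 to 25.8 CPM in MV-4-11 (difference 1.13 ± 0.13). TNFRSF10B, the TRAIL death receptor DR5, rose from 144 to 154 CPM to 301 to 309 CPM in MOLM-13 and stood at 165 to 176 CPM and 156 to 183 CPM in MV-4-11 (difference 1.01 ± 0.09). This value lies just past the fold minimum, and TNFRSF10B was not followed singly under the alternative settings.

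Other p53 targets differed less. TP53I3, an oxidoreductase, rose in MOLM-13 from 0.714 to 1.03 CPM to 5.3 to 8.24 CPM and in MV-4-11 from 2.21 to 2.64 CPM to 17.4 to 21.4 CPM, with a difference of -0.02 and a 95% interval of -0.83 to 0.78. MDM2, the ubiquitin ligase that degrades p53, rose in both lines, by 1.85 and 1.15 on the log2 scale, and its difference of 0.70 ± 0.12 passed the FDR but not the fold minimum. BAX, a pore-forming apoptosis effector, had a difference of 0.54 ± 0.10, also below the fold minimum. With no fold minimum 18 of the 25 members had a higher response in MOLM-13. Without etoposide-treated MOLM-13 replicate 1 the count at the usual thresholds was 7 in place of 4. Outside the list, and chosen after their values were seen, EDA2R and PLK2 also had called higher responses in MOLM-13. EDA2R, a TNF receptor family member known as a p53 target, rose from 4.64 to 7.65 CPM to 28.2 to 33.6 CPM in MOLM-13 and stood at 28.9 to 33.3 CPM and 33.1 to 40.2 CPM in MV-4-11 (difference 2.06 ± 0.18). PLK2, a polo-like kinase also known as a p53 target, rose from 14.4 to 14.5 CPM to 54 to 60 CPM in MOLM-13, against 22.2 to 24.2 CPM and 25.1 to 32.4 CPM in MV-4-11 (difference 1.67 ± 0.13).

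Genes of DNA replication and S phase were the list with the lowest median difference, -0.85. Of 37 members, all tested, 15 had a called higher response in MV-4-11, 40.5% against 5.87% of all genes, and none had a called higher response in MOLM-13. In MOLM-13 16 members fell and none rose, and in MV-4-11 1 rose (CCNE2) and none fell. All 37 differences were negative, from -1.87 to -0.36, all 37 had an unadjusted p under 0.05, and with no fold minimum all 37 passed. The 15 calls became 10 with DESeq2, 14 with limma voom and 11 without treated MOLM-13 replicate 1. With a mean of at least 5 CPM required in the test, 13 were called. In untreated cells 1 member was called, higher in MV-4-11. The widest difference was that of CCNE2 (chr8:94879770-94896678), which encodes cyclin E2 of the G1 to S transition. It measured 84.7, 77 and 86.5 CPM in untreated and 62.8, 51.9 and 52.5 CPM in treated MOLM-13, and 67.1, 60.1 and 62.2 CPM in untreated and 166, 154 and 148 CPM in treated MV-4-11. The treated groups lay on opposite sides of their untreated groups without overlap (difference -1.87 ± 0.11, adjusted p = 1.6e-08, edgeR). RRM2 (chr2:10120698-10211725), the regulated subunit of the ribonucleotide reductase that makes deoxynucleotides, fell from 325, 334 and 349 CPM to 157, 182 and 155 CPM in MOLM-13, and went from 409, 399 and 380 CPM to 573, 544 and 532 CPM in MV-4-11 (difference -1.50 ± 0.09). Its partner RRM1 fell to 106 to 148 CPM from 247 to 274 CPM in MOLM-13 and measured 348 to 366 CPM and 464 to 509 CPM in MV-4-11.

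E2F8, a repressive E2F factor, fell from 43.5 to 44.9 CPM to 18.8 to 22.2 CPM in MOLM-13 and went from 59.1 to 67.4 CPM to 89.8 to 92.4 CPM in MV-4-11 (difference -1.66 ± 0.10). The origin licensing factor CDC6 fell to 48.5 to 53.4 CPM from 112 to 123 CPM in MOLM-13 and was at 133 to 137 CPM and 152 to 164 CPM in MV-4-11 (difference -1.47 ± 0.09). MCM6, a subunit of the replicative helicase, fell in MOLM-13 by 1.55 on the log2 scale and was at -0.59 in MV-4-11, and its difference of -0.95 ± 0.11 missed the fold minimum. PCNA, the sliding clamp, which p53 is also known to induce, had a difference of -0.36 ± 0.07, below the fold minimum.

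The E2F factors bind a short motif near the start of their target genes, and promoters of the replication list were searched for it. The letters TTTCCCGC or TTTGGCGC, on either strand, were looked for in the 250 bases before the start given by RefSeq. Promoters were found by symbol for 31 of the 37 members, and 13 of them (41.9%) held a match, against 3.12% of the promoters of 10554 tested genes with an entry and 1.96% of all 27305 in the table. Among the genes with a called difference 4.81% of those higher in MV-4-11 and 1.52% of those higher in MOLM-13 held one. Called and uncalled members of the replication list were not compared for the match, so whether it goes with a called difference was not tested. The examples were taken from called members only and do not bear on that question. Below are 3 promoters of called members with a match, shown 5′ to 3′ on the gene's strand from GRCh38.p14, with the matched letters in capitals. They belong to the helicase assembly factor GINS2 (chr16:85688955-85689204, minus strand), the transcription factor E2F2 (chr1:23531234-23531483, minus strand) and the licensing factor CDT1 (chr16:88803539-88803788, plus strand).
GINS2: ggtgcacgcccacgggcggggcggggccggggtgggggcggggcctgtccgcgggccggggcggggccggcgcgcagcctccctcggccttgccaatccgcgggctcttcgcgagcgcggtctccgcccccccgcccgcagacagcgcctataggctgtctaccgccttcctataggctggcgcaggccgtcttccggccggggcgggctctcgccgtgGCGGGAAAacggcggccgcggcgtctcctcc
E2F2: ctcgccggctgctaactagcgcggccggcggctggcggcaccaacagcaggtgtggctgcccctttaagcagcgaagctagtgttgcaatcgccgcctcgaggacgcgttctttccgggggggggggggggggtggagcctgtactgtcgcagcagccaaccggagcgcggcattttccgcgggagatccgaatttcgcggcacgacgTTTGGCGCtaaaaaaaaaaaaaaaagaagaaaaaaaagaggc
CDT1: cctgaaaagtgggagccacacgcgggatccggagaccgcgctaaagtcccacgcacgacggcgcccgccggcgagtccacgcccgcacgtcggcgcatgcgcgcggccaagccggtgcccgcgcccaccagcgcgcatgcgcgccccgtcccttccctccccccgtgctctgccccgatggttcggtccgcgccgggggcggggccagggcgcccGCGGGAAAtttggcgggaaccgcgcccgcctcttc
The response differences of GINS2 and E2F2 were -1.18 and -1.03, and that of CDT1 lay just past the fold minimum. In GINS2 and CDT1 the match is the reverse complement of TTTCCCGC, and in E2F2 it is TTTGGCGC as written. A match is a string of letters and was not tested for binding.

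Of the G2 and mitotic genes all 30 members were tested, 5 had a called higher response in MV-4-11 (MKI67, KIF11, NUSAP1, AURKB and KIF23) and none in MOLM-13, while 16 members fell in MOLM-13 and 4 in MV-4-11. At an unadjusted p under 0.05 the counts were 27 and 0. The median log2 response was -1.01 and -0.30. MKI67 (chr10:128096659-128126423), the proliferation antigen Ki-67, went from 614, 618 and 622 CPM to 210, 215 and 214 CPM in MOLM-13 and from 1044, 968 and 978 CPM to 873, 821 and 876 CPM in MV-4-11. Both lines had lower levels after etoposide without overlap, and only the MOLM-13 value passed the fold minimum (difference -1.32 ± 0.07). PLK1, the mitotic kinase, fell in both lines, by 1.26 and 1.03 on the log2 scale, and its difference of -0.23 ± 0.10 was not called (adjusted p = 0.11, edgeR). CCNB1, which encodes cyclin B1, had log2 responses of -1.18 in MOLM-13 and -0.89 in MV-4-11, with a difference of -0.29 ± 0.08. TOP2A, the S and G2 phase isoform of the drug's target, fell in MOLM-13 from 519 to 592 CPM to 203 to 349 CPM and stood at 867 to 942 CPM and 766 to 893 CPM in MV-4-11. Its difference of -0.91 ± 0.18 missed the fold minimum, and reached -1.07 and was called without etoposide-treated MOLM-13 replicate 1, which had the highest of the treated MOLM-13 levels. TOP2B, the other isoform of the drug's target, was not called (0.31 ± 0.18).

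Of 31 tested DNA break repair genes, 6 had a called higher response in MV-4-11 (FANCI, RAD51AP1, EXO1, BRCA1, BLM and BRCA2) and none in MOLM-13, the median difference was -0.28, and 5 members fell in MOLM-13 and none in MV-4-11. At an unadjusted p under 0.05 there were 19 toward MV-4-11 and 1 toward MOLM-13. The 6 act in homologous recombination, resection or crosslink repair. FANCI fell from 184 to 203 CPM to 80.7 to 99.3 CPM in MOLM-13 and went from 222 to 226 CPM to 288 to 317 CPM in MV-4-11 (difference -1.54 ± 0.10). The nuclease EXO1 fell from 58.9 to 64.9 CPM to 29.5 to 30.4 CPM in MOLM-13 and went from 89.8 to 92.9 CPM to 111 to 116 CPM in MV-4-11 (difference -1.36 ± 0.08).

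Of 21 tested histone genes 7 had a called higher response in MOLM-13, 33.3% against 1.43% of all genes, and none in MV-4-11 (12 and 2 at an unadjusted p under 0.05). In MOLM-13 12 members rose and 2 fell, in MV-4-11 4 rose and 1 fell, and the medians were 1.24 and -0.02. H2BC5 (chr6:26158122-26171349) went from 2.03, 3.14 and 2.91 CPM to 10.7, 11.4 and 10.9 CPM in MOLM-13 and stayed within 0.812 to 1.17 CPM in all 6 MV-4-11 libraries (difference 2.05 ± 0.31, adjusted p = 9.9e-05, edgeR). H2BC4 was 1 of only 3 genes in the whole table that rose in MOLM-13 and fell in MV-4-11 (0.0201% of genes tested), at 0.771 to 1.43 CPM and 2.59 to 3.48 CPM in MOLM-13 against 0.788 to 0.808 CPM and 0.193 to 0.515 CPM in MV-4-11. These are low levels. The libraries were made from polyadenylated RNA, most mRNA of replication-dependent histones has no poly(A) tail, and near-identical copies share reads, so the histone values cover only part of the mRNA. With a mean of at least 5 CPM required in the test, 1 histone gene was called.

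Of 38 tested interferon-stimulated genes 14 had a called higher response in MV-4-11 and 1 (TRIM22) in MOLM-13, 25 rose in MV-4-11 against 7 in MOLM-13, and the median log2 responses were 1.48 and 0.52. The untreated levels differed, with 15 members higher in MOLM-13 and 1 higher in MV-4-11, and 11 of the 14 had a mean below 1 CPM in untreated MV-4-11. With genes of 0 untreated reads set at their bound, the median difference of the list was -0.77 in place of -0.81. The bound changed IFI44L alone. IFIT1, EPSTI1, IFIT5, OAS3 and IFI44, with 1 to 3 reads in untreated MV-4-11, kept their fitted values. The bounded median therefore does not show how far low reads affect the list. OAS1 (chr12:112905856-112933219), the sensor that makes 2′-5′ oligoadenylate on double-stranded RNA, measured 2.48, 2.52 and 3.67 CPM in untreated and 5.07, 7.2 and 7.28 CPM in treated MOLM-13, and 0.449, 0.323 and 0.64 CPM in untreated and 3.33, 2.94 and 4.24 CPM in treated MV-4-11. It rose in both lines, more in MV-4-11 (difference -1.69 ± 0.38, adjusted p = 0.0029, edgeR), and treated MV-4-11 came up to the range of untreated MOLM-13. SAMD9L, an antiproliferative interferon target, rose from 2.12 to 2.44 CPM to 9.94 to 11.4 CPM in MV-4-11 and stood at 13.3 to 19.8 CPM and 14.6 to 26.1 CPM in MOLM-13 (difference -1.78 ± 0.29).

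The IFIT genes, whose products bind viral RNA, had wide differences that rest on few reads in untreated MV-4-11. IFIT3 measured 1.62 to 4.69 CPM in untreated and 2.94 to 4.5 CPM in treated MOLM-13, with overlap, and 0 to 0.215 CPM and 2.01 to 2.46 CPM in MV-4-11 (difference -4.53 ± 0.72). IFIT1 had 1 read over the 3 untreated and 65 reads over the 3 treated MV-4-11 libraries, a ratio of 50.5 with a 95% counting interval of 8.75 to 2030. DDX60, a helicase that assists viral RNA sensing, rose from 0.0539 to 0.0997 CPM to 0.696 to 1.31 CPM in MV-4-11 and was at 8.11 to 10.1 CPM and 6.93 to 11.5 CPM in MOLM-13. With a mean of at least 5 CPM required in the test, 2 members were called higher in MV-4-11. IFI6, an interferon-induced mitochondrial protein, lost its call when any 1 of 4 untreated libraries was left out (differences of -1.68, -1.94, -2.07 and -2.04 without MOLM-13 replicate 2 or 3 or MV-4-11 replicate 2 or 3), and with DESeq2 (-2.12) and limma voom (-1.87). TRIM22, an antiviral ubiquitin ligase that p53 is also known to induce, rose from 46.6 to 59.3 CPM to 205 to 265 CPM in MOLM-13 and measured 124 to 132 CPM and 152 to 184 CPM in MV-4-11 (difference 1.73 ± 0.14).

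The interferon-stimulated response element is the promoter site through which interferons act on many of these genes, and its core, GAAA and GAAA with any 2 bases between, was searched in the same way. It was present in 17 of the 30 list promoters with an entry (56.7%), against 2.51% of those of all tested genes and 3.07% of the whole table, and in 3.69% and 3.03% of genes with a called higher response in MV-4-11 and MOLM-13. Below are 3 neighbouring genes of chromosome 10 with matches in capitals, IFIT1 (chr10:89392373-89392622), IFIT3 (chr10:89327747-89327996) and IFIT5 (chr10:89414318-89414567), all on the plus strand of GRCh38.p14.
IFIT1: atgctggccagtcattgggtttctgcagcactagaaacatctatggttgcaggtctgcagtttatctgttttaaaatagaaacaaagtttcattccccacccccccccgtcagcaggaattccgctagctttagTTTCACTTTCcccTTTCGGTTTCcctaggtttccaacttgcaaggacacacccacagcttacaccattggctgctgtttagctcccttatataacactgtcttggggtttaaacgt
IFIT3: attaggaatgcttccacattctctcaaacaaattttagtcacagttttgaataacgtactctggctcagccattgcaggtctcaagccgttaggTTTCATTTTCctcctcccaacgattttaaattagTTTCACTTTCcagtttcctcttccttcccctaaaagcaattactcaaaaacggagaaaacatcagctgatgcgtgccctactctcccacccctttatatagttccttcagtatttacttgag
IFIT5: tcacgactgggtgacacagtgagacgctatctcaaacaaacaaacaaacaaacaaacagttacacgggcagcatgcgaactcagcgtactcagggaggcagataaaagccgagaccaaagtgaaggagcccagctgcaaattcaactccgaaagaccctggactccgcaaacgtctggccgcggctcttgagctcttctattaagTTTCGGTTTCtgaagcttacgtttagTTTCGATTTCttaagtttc
Each holds 2 matches, in all cases as the reverse complement. The fitted differences were -5.31, -4.53 and -3.65, and those of IFIT1 and IFIT5 depend on the prior count, since untreated MV-4-11 had 1 and 2 reads.

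Of 21 tested NF-κB, cytokine and chemokine genes 6 had a called higher response in MV-4-11 (PTX3, CXCL16, CCL22, IL1B, CCL3 and TRAF1) and none in MOLM-13 (9 and 0 at an unadjusted p under 0.05), and 14 rose in MV-4-11 against 6 in MOLM-13. Of the 6 called genes, 5 had a mean below 1 CPM in untreated MV-4-11. With a mean of at least 5 CPM required in the test, 1 was called. TRAF1 lost its call without untreated MOLM-13 replicate 3, at -0.99. IL1B (chr2:112829751-112836816), the inflammatory cytokine, rose from 0.926 to 1.43 CPM to 3.39 to 6.34 CPM in MOLM-13 and from 0.443 to 0.548 CPM to 10.4 to 11.1 CPM in MV-4-11, which ended above every MOLM-13 library (difference -2.41 ± 0.38, adjusted p = 0.00014, edgeR). CXCL8, which encodes interleukin 8, rose in both, by 2.47 and 2.39 on the log2 scale, with a 95% interval of the difference of -0.45 to 0.62. Of 30 tested monocyte and macrophage genes 6 had a called higher response in MV-4-11 (S100A8, S100A9, FCGR2B, CD86, CD93 and VCAN) and none in MOLM-13 (13 and 5 at an unadjusted p under 0.05), 16 rose in MOLM-13 and 20 in MV-4-11, and 18 had a higher untreated level in MOLM-13. Of these 6 called genes, 4 had a mean below 1 CPM in untreated MV-4-11. With a mean of at least 5 CPM required in the test, 5 monocyte genes were called. With genes of 0 untreated reads set at their bound, the median difference of the monocyte list was -0.41 in place of -0.56. S100A8 (chr1:153390032-153391073), a subunit of calprotectin, went from 14.7, 8.33 and 6.37 CPM to 49.2, 33.2 and 32.3 CPM in MOLM-13 and from 0.0997, 0.0539 and 0.295 CPM to 9.23, 8.43 and 8.64 CPM in MV-4-11. All treated libraries were above the untreated ones of their line, and treated MV-4-11 lay in the range of untreated MOLM-13 (difference -3.83 ± 0.65). Its partner S100A9 had a difference of -2.34 ± 0.44. LYZ, which encodes lysozyme, rose from 1406 to 2278 CPM to 4828 to 5967 CPM in MOLM-13 and from 261 to 356 CPM to 842 to 1140 CPM in MV-4-11, with responses of 1.51 and 1.67 and a 95% interval of the difference of -0.61 to 0.29. FCGR2B shares reads with FCGR2C, a near-identical copy, and is uncertain, and its call was lost without untreated MV-4-11 replicate 1 or 3 (-2.38 and -2.10) and with limma voom (-2.25).

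Of 11 tested MHC class II genes, which present antigen, 10 rose in MOLM-13 and 6 in MV-4-11, with medians of 1.88 and 1.03. A single difference was called by edgeR's quasi-likelihood test, that of HLA-DRA, from 7.54 to 9.18 CPM to 25.2 to 35 CPM in MOLM-13 and from 11.9 to 12.7 CPM to 17.9 to 23.7 CPM in MV-4-11 (1.06 ± 0.19). It was lost without untreated MOLM-13 replicate 3 or treated MV-4-11 replicate 3 (0.99 and 0.94) and with library size alone (0.95). DESeq2 called 3 members higher in MOLM-13, and with 1 library left out the count was between 0 and 4. CD74, the invariant chain, rose in MOLM-13 by 1.33 on the log2 scale and was at 0.69 in MV-4-11, with a difference of 0.64 ± 0.11 below the fold minimum.

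The AP-1 and early response list held both directions. Of 22 tested members FOSB, EGR1 and FOS had a called higher response in MOLM-13 and JUN in MV-4-11. FOSB (chr19:45467995-45475179) measured 2.64, 3.29 and 2.65 CPM in untreated and 6.28, 7.25 and 5.35 CPM in treated MOLM-13, and 4.38, 4.53 and 4.33 CPM in untreated and 1.15, 0.928 and 1.61 CPM in treated MV-4-11. It rose in MOLM-13 and fell in MV-4-11 (difference 2.98 ± 0.26, adjusted p = 4.5e-07, edgeR). FOS rose from 32.8 to 38.2 CPM to 76 to 77.8 CPM in MOLM-13 and stayed within 37.5 to 40.7 CPM in all 6 MV-4-11 libraries (difference 1.18 ± 0.10). JUN, the partner of FOS proteins in AP-1, fell from 1.01 to 3.72 CPM to 0.807 to 1.12 CPM in MOLM-13 with overlap, and went from 4.13 to 5.53 CPM to 7.77 to 8.52 CPM in MV-4-11 (difference -1.94 ± 0.42). MYC (chr8:127735434-127742951), the growth regulator, went from 578, 545 and 493 CPM to 326, 375 and 341 CPM in MOLM-13 and fell from 367, 368 and 366 CPM to 114, 124 and 94.9 CPM in MV-4-11. Both lines were lower after etoposide without overlap, and only the MV-4-11 value passed the fold minimum (difference 1.09 ± 0.12, adjusted p = 4.3e-06, edgeR, lost at 0.98 without treated MV-4-11 replicate 3 and at 0.97 with library size alone). In the MYC and nucleolar list 1 of 28 tested members was called each way, MYC and MXD3, with medians of -0.66 and -0.80.

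The lists nearest to the shared lesions were the KMT2A fusion programme and the FLT3, STAT5 and MAPK feedback genes. Calls covered 0% of tested members in the first and 14.3% in the second, against 7.3% of all genes. None of the 27 tested members of the KMT2A fusion programme was called in either direction by edgeR's quasi-likelihood test, and the median difference was -0.01. At an unadjusted p under 0.05 there were 9 toward MOLM-13 and 8 toward MV-4-11, edgeR's likelihood ratio test and limma voom each called 1, and DESeq2 called 0. Without treated MOLM-13 replicate 1, 2 members were called higher in MV-4-11. With no fold minimum 9 members passed toward MOLM-13 and 3 toward MV-4-11. In MV-4-11 HOXA5, HOXA6 and HOXA7 had 0 untreated reads and 5, 4 and 1 treated reads, which leaves little room for a call. HOXA9, the homeobox gene that KMT2A fusions sustain, was at 98 to 102 CPM and 88.9 to 104 CPM in MOLM-13 and at 54.9 to 61.8 CPM and 29.9 to 37 CPM in MV-4-11 (difference 0.68 ± 0.12, below the fold minimum). MEIS1, its cofactor, had a difference of -0.22 ± 0.08 (adjusted p = 0.061, edgeR). KMT2A itself, at 73.8 to 76.4 CPM and 61.9 to 69.2 CPM in MOLM-13 and 210 to 237 CPM and 185 to 200 CPM in MV-4-11, had a difference of -0.01 with a 95% interval of -0.21 to 0.18. FLT3 measured 586, 589 and 619 CPM in untreated and 813, 660 and 733 CPM in treated MOLM-13, and 634, 624 and 620 CPM in untreated and 526, 480 and 440 CPM in treated MV-4-11. The untreated levels nearly met, the treated levels separated without overlap, and the difference of 0.68 ± 0.10 (adjusted p = 0.00012, edgeR) was below the fold minimum. Of 28 tested FLT3, STAT5 and MAPK feedback genes 4 had a called higher response in MV-4-11 (SPRY4, LIF, ID1 and DUSP5), with a median difference of 0.03, and none in MOLM-13 by edgeR's quasi-likelihood test (7 each way at an unadjusted p under 0.05). DESeq2 called 1 higher in MOLM-13, and 2 were called without treated MOLM-13 replicate 1. In MV-4-11 the 4 became 2 without treated MV-4-11 replicate 3. DUSP6, a phosphatase that dampens ERK, was not called (0.41 ± 0.14). SPRY4, a feedback inhibitor of receptor kinases, had 0 reads in untreated and 9 in treated MV-4-11. This is 2.33-fold against a floor of 3 reads over the group, with a lower 95% counting limit of 1.53-fold.

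**Figure D2:**
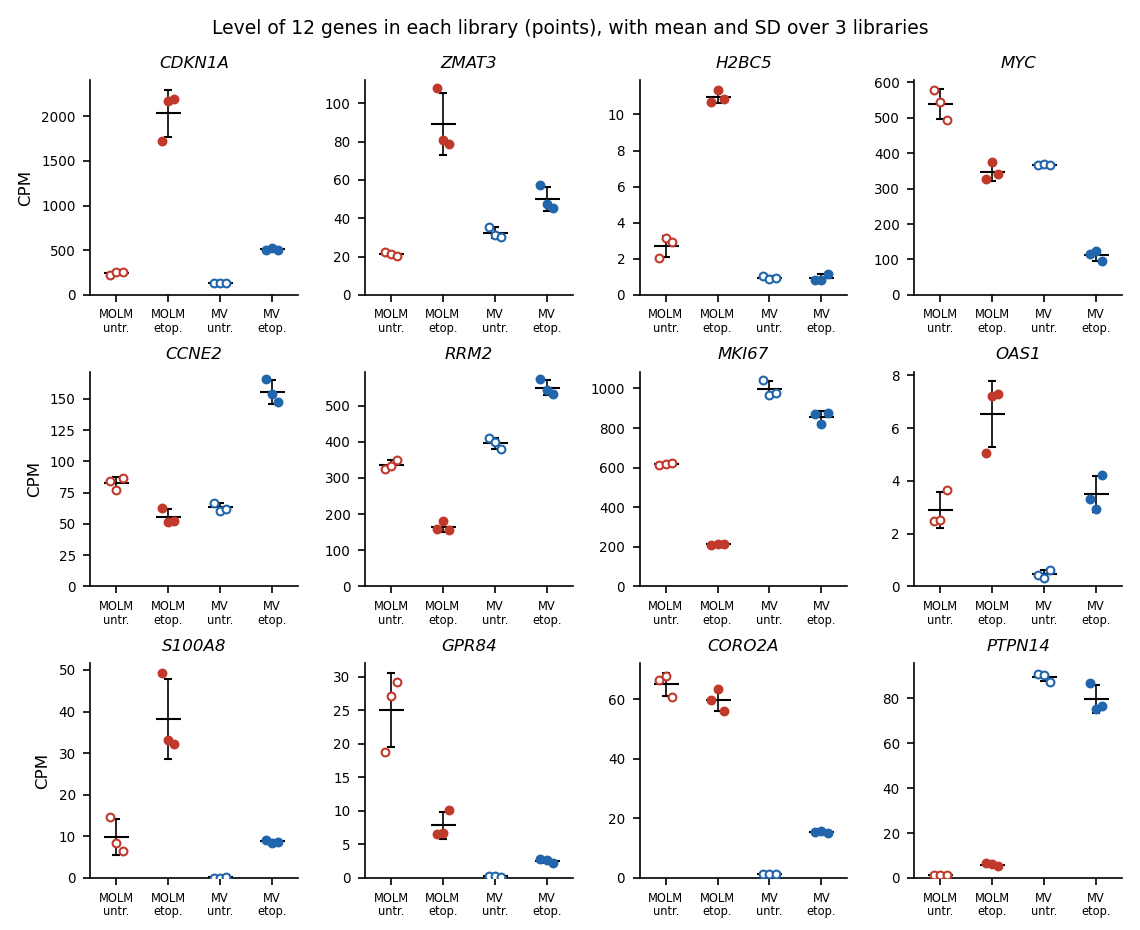
Levels in CPM of 12 genes in each of the 12 libraries are plotted from 0, with untreated libraries as open and treated libraries as filled points, MOLM-13 in red and MV-4-11 in blue, and with the mean and SD of 3 libraries in black. CDKN1A, ZMAT3 and H2BC5 separate most in treated MOLM-13, CCNE2 and RRM2 go down in MOLM-13 and up in MV-4-11, and OAS1, S100A8 and GPR84 start near 0 in MV-4-11.

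Lists of metabolism, stress and cell death differed at a few genes. Of 25 tested ATF4 stress response genes 3 had a called higher response in MV-4-11 (PHGDH, CHAC1 and NUPR1). PHGDH, the first enzyme of serine synthesis, fell from 146 to 158 CPM to 30.8 to 37.5 CPM in MOLM-13 and went from 250 to 289 CPM to 158 to 196 CPM in MV-4-11 (difference -1.56 ± 0.12). CHAC1, a glutathione-degrading enzyme, had a difference of -1.06 ± 0.29 that fell below the fold minimum without any 1 of 5 libraries, with values of -0.99 to -0.90. Of 27 tested sterol and lipid genes 1 was called, the cholesterol exporter ABCA1, higher in MOLM-13 (1.09), which was lost without untreated MOLM-13 replicate 1 or MV-4-11 replicate 3 (0.96 and 0.92) and with library size alone (0.97). Of 26 tested apoptosis regulators 5 had a called higher response in MV-4-11 (among them BCL2A1, TNFSF10, BIK and BAD), 3 of them without treated MV-4-11 replicate 3. BCL2A1, an anti-apoptotic BCL2 relative, had 0 reads in untreated and 68 in treated MV-4-11, at least 17.6-fold, and rose from 1.22 to 2.75 CPM to 5.4 to 6.96 CPM in MOLM-13. TNFSF10, the death ligand TRAIL, rose from 4.69 to 5.02 CPM to 12.3 to 14.5 CPM in MV-4-11 and stood at 10.3 to 12.3 CPM and 9.21 to 17.1 CPM in MOLM-13 with overlap (difference -1.29 ± 0.24). Of 15 tested granule genes 2 had a called higher response in MV-4-11, the myeloperoxidase gene MPO (64.3 to 82.2 CPM to 34.2 to 48.2 CPM in MOLM-13, 9.32 to 9.82 CPM to 14.8 to 17.6 CPM in MV-4-11) and the granulocyte factor CEBPE.

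Outside the lists, examples of the widest differences among genes above the 5 CPM limit in both lines were again chosen after their values were seen. PTPN14 (chr1:214348700-214552449), a phosphatase of the Hippo pathway, rose from 1.17, 1.23 and 1.22 CPM to 6.74, 5.98 and 5.19 CPM in MOLM-13 and stood at 90.7, 90.2 and 87.4 CPM and at 86.9, 75.5 and 76.6 CPM in MV-4-11 (difference 2.46 ± 0.17, adjusted p = 4.4e-08, edgeR). MV-4-11 was above MOLM-13 in every library. The cytidine deaminase APOBEC3H rose from 1.32 to 1.68 CPM to 18.6 to 23 CPM in MOLM-13 and from 12.2 to 14.7 CPM to 27.3 to 36.4 CPM in MV-4-11 (difference 2.49 ± 0.21). CYFIP2, an actin regulator of the WAVE complex and known as a p53 target, rose from 7.19 to 11.1 CPM to 44.9 to 50.2 CPM in MOLM-13 and went from 28.4 to 32.7 CPM to 44 to 48.7 CPM in MV-4-11, so the treated levels met (difference 1.84 ± 0.16). SMYD3, a methyltransferase, rose from 25.7 to 29.5 CPM to 62.4 to 65.6 CPM in MOLM-13 and was at 200 to 216 CPM and 138 to 165 CPM in MV-4-11 (difference 1.62 ± 0.11).

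Some of the widest ratios toward MOLM-13 came from genes with a handful of reads in that line. NEUROG3, a transcription factor of endocrine progenitors, had 1 read in untreated and 15 in treated MOLM-13, a ratio of 16.1 with a counting interval of 2.47 to 676, while MV-4-11 had 4.78 to 6.2 CPM and 3.45 to 4.89 CPM. NUAK1, a stress kinase, had 2 and 16 reads in MOLM-13, a ratio of 8.56 with an interval of 2.01 to 76.8, and lost its call with DESeq2 (2.65), in the fit of 60 libraries (2.45) and without any 1 of 10 libraries (1.89 to 2.52). CYP27A1, a sterol hydroxylase, was the reverse case, rising from 21.9 to 26.9 CPM to 70.4 to 101 CPM in MOLM-13 while MV-4-11 held 0.159 to 0.431 CPM in all 6 libraries (difference 2.35 ± 0.63, lost at 2.05 without untreated MV-4-11 replicate 2). SCG2, a granin of secretory granules, rose from 0.811 to 1.49 CPM to 4.71 to 5.24 CPM in MOLM-13 and stayed below 0.5 CPM in MV-4-11.

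On the other side CORO2A (chr9:98120975-98192637), an actin-binding coronin, kept to 60.6 to 67.8 CPM and 56 to 63.3 CPM in MOLM-13 and rose from 1.45, 1.29 and 1.38 CPM to 15.4, 15.6 and 15.2 CPM in MV-4-11 (difference -3.60 ± 0.14, adjusted p = 7.1e-11, edgeR). PRAM1, an adaptor of myeloid cells, rose in MV-4-11 from 0.197 to 0.97 CPM to 10.4 to 14.1 CPM and was at 19.6 to 24.9 CPM and 39.8 to 48.1 CPM in MOLM-13 (difference -3.46 ± 0.31). TBC1D4, a regulator of glucose transporter traffic, was at 39.9 to 43.7 CPM and 46.2 to 46.4 CPM in MOLM-13 and rose from 0.916 to 1.28 CPM to 6.96 to 7.63 CPM in MV-4-11 (difference -2.53 ± 0.15). CD1D, which presents lipid antigens, was at 33 to 39.9 CPM and 40.9 to 51.7 CPM in MOLM-13 and rose from 2.14 to 2.76 CPM to 16.4 to 17.2 CPM in MV-4-11 (difference -2.41 ± 0.17). JAG2, a Notch ligand, was at 21.7 to 26.5 CPM and 16.8 to 17.2 CPM in MOLM-13 and rose from 1.99 to 2.26 CPM to 7.69 to 10.6 CPM in MV-4-11 (difference -2.57 ± 0.18). In these 5 genes treated MV-4-11 stayed below every MOLM-13 library.

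A set of 21 genes fell in MOLM-13 and rose in MV-4-11 (0.141% of genes tested), and 3 did the opposite (FOSB, H2BC4 and CLSTN2). GPR84 (chr12:54362445-54364487), a receptor for medium-chain fatty acids on myeloid cells, fell from 18.9, 27.1 and 29.2 CPM to 6.63, 6.72 and 10.2 CPM in MOLM-13 and rose from 0.349, 0.215 and 0.0984 CPM to 2.77, 2.63 and 2.22 CPM in MV-4-11. NEFH, a neurofilament subunit, fell from 64.7 to 83.6 CPM to 26.2 to 30.6 CPM in MOLM-13 and rose from 0.0539 to 0.0997 CPM to 0.464 to 1.19 CPM in MV-4-11. TNFRSF8, which encodes CD30, fell from 9.94 to 11.3 CPM to 3.96 to 5.13 CPM in MOLM-13 and rose from 0.148 to 0.323 CPM to 2.06 to 2.86 CPM in MV-4-11. For these 3 the lines approached each other from far apart, and MOLM-13 remained above MV-4-11. DDAH2, a dimethylarginine hydrolase, crossed over, from 3.35 to 5.2 CPM to 1.96 to 2.3 CPM in MOLM-13 and from 2.04 to 2.96 CPM to 4.95 to 6.78 CPM in MV-4-11 (difference -2.28 ± 0.28). The creatine transporter gene SLC6A8, which has near-identical pseudogene copies and is uncertain, crossed in its means. It went from 6.08 to 21.8 CPM to 1.9 to 6.37 CPM in MOLM-13, with overlap, and from 3.45 to 4.04 CPM to 11.6 to 13.4 CPM in MV-4-11. The genes ABCC6 and NID1 had 0 reads in untreated MV-4-11 and 32 each after etoposide, at least 8.29-fold.

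Among the cell lines of the series, each fitted on its own, the 2 lines lay apart on several lists. The median of the replication list was -0.95 in MOLM-13, the lowest of 10 lines, and -0.04 in MV-4-11, the eighth from the top. The G2 and mitotic list was also lowest in MOLM-13 (-1.02, against -0.34), as were the repair list (-0.62, against -0.23) and the interferon-stimulated list (0.51, against 1.12). The p53 target list was second highest in MOLM-13 (1.12) after OCI-AML3 (1.95) and seventh in MV-4-11 (0.41). The histone list had the same leading lines, 1.66 in OCI-AML3 and 1.27 in MOLM-13, against -0.08 in MV-4-11. CDKN1A rose by 3.04 in MOLM-13 and by 1.86 in MV-4-11, the sixth and the lowest of 10 log2 values. RRM2 was lowest in MOLM-13 (-1.04), and OCI-AML3 (-0.65) was the other line with a negative value. The members tested differed between lines, with 2 to 11 genes for the MHC class II list and 15 to 20 for the histone list, and OCI-AML2 was not used here. Each line had its own dose, and these ranks were not tested.

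**Figure D3:**
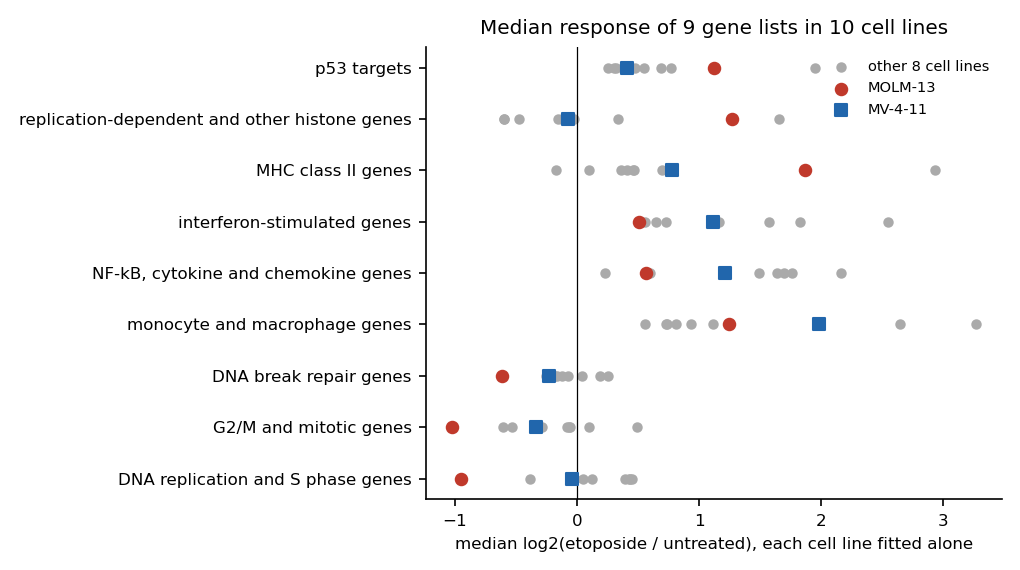
The median log2 ratio of etoposide over untreated is shown for 9 gene lists in 10 cell lines, each fitted alone, with MOLM-13 as red circles, MV-4-11 as blue squares and the other 8 lines in grey. MOLM-13 is second highest for p53 targets, histone genes and MHC class II genes and lowest for the replication, mitotic, repair and interferon-stimulated lists.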

How the data were processed

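Per the labels and the study's methods, poly(A)-selected, stranded, single-end libraries were sequenced, and the authors mapped reads with STAR 2.5.3a to GRCh38.p7 and deposited unnormalized counts of reads per gene, 1 column per library. Which of STAR's count columns was deposited is not given in the sources used here. Of 58037 identifiers, 45 pseudoautosomal copies without reads were left out. Names and positions were taken from GENCODE on GRCh38 by identifier (56948 matched) and promoters from RefSeq (GRCh38.p14) by symbol.

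The 12 libraries were fitted together in R 4.3.3 with edgeR 4.0.16 (filterByExpr with a minimum count of 10 and total of 15, TMM, quasi-likelihood test), with a mean per group and no covariate. The interaction, each line's response and the untreated difference are contrasts of this fit, called at a Benjamini-Hochberg FDR below 0.05 over 14933 genes and a fold above 2. SE is the absolute log2 value over the square root of F. Intervals for reads are binomial at 95% and, like the 3-read floor, cover counting error only. The fit was tested on simulated data. Sums and figures used Python with pandas and matplotlib.

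The gene lists, the members and the rule for named genes were chosen with earlier results of these data known. The rule took protein-coding called genes of at least 5 CPM in a group (the 12 widest each way, 6 of each opposite orientation, 3 each way per list) and 11 genes whatever their values. Other genes described singly were chosen after their values were seen. Alternatives were other normalizations (RLE, library size, TMM within line), filters, tests (likelihood ratio, DESeq2 1.42.0, limma voom 3.58.1), no fold minimum, a fit of 60 libraries, replicate blocks and each replicate left out. The other lines were used for ranks and in the fit of 60 libraries. A few list members are not reported here.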

Additional observations from a re-analysis of the deposited data

Results flagged for a closer look

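The response differed between the cell lines, by the interaction test itself, for 1090 genes. Of the genes named by rule, 7 were also called in opposite directions in the 2 lines (edgeR quasi-likelihood test in all cases). FOSB, a subunit of AP-1, rose in MOLM-13 and fell in MV-4-11, with a difference of 2.98 on the log2 scale. The other 6 fell in MOLM-13 and rose in MV-4-11, by differences of -2.28 for DDAH2, -3.32 for SLC6A8, -4.67 for TNFRSF8, -4.73 for NEFH, -5.17 for GPR84 and -6.18 for PKDCC, a secreted tyrosine kinase. For SLC6A8 the untreated and treated MOLM-13 levels overlapped. PKDCC had 3 reads in the untreated and 78 in the treated MV-4-11 libraries, a ratio of 20.2 with a counting interval of 6.66 to 100, and its fitted value depends on the prior count. Each of these 7 differences was called in the same direction under each of the 24 to 26 alternatives in which the gene was tested.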

How the results depend on the processing

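No called response difference was called in the opposite direction under any of the 26 alternatives. The counts of genes with a higher response in MOLM-13 and in MV-4-11 were 152 and 1107 with library size alone (12.1% toward MOLM-13 in place of 19.6%, with the median difference at -0.18), 236 and 811 with RLE, 219 and 792 with DESeq2, and 172 to 261 and 769 to 918 when 1 library was left out. With a mean of at least 5 CPM required they were 94 and 396, with 567 genes rising and 228 falling in MOLM-13, 722 and 131 in MV-4-11, and 929 and 495 higher in untreated MOLM-13 and MV-4-11. With at least 5 CPM in a group of each line, added after the values were seen, the same counts were 80 and 320, 516 and 213, 611 and 125, and 654 and 329. With no fold minimum they were 1575 and 2558, 4306 and 4120, 4904 and 3592, and 4923 and 4347. The first 2 settings test fewer genes, and the last drops a criterion.

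Same-numbered libraries deviated together by correlations of 0.0667 to 0.193 in MOLM-13 and 0.0163 to 0.0999 in MV-4-11, not all above 0.1, and untreated MOLM-13 replicate 2 correlated best with another number, so the numbers were not taken as pairs. With a replicate block in each line the counts were 220 and 931, and in MOLM-13 alone 220 and 935. Of 73 named genes 57 kept their side of the thresholds throughout. NUAK1 lost its call under 12 alternatives, and CHAC1 and IFI6 under 6 each. Low read numbers limit the interferon-stimulated, NF-κB, monocyte and histone results, as given beside them.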
